A study of Mus musculus with 6 samples.

Results

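The amino acid transporters described here are 62 genes of the 23396 in the deposited table, chosen by symbol alone as members of solute carrier families Slc1, Slc3, Slc6, Slc7, Slc36, Slc38 and Slc43. The Slc6 family gave 19 genes, Slc7 gave 16, Slc38 gave 11, Slc1 gave 7, Slc36 gave 4, Slc43 gave 3 and Slc3 gave 2. The choice by symbol also brings in genes that carry other substrates, namely the creatine transporter Slc6a8, the monoamine transporters Slc6a2, Slc6a3 and Slc6a4 and the nucleobase transporter Slc43a3, and Slc7a6os, which is no transporter. Total kidney RNA of male mice, all 6 months old, was sequenced after ribosomal RNA had been removed, with a right kidney from each of 6 mice. Of these, 3 mice were homozygous for a Far2 knockout allele (strain C57BL/6N-Far2tm2a(KOMP)Wtsi/2J, here Far2 KO) and 3 were C57BL/6N wild type (WT), so that the groups share the C57BL/6N background. Far2 encodes a fatty acyl-CoA reductase, which makes fatty alcohols. The comparison asks how transcript levels of the transporters stand in kidneys of mice labelled as homozygous for its knockout. Whether the mice were littermates is not given in the sources used here.

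The kidney tubule takes filtered amino acids back into the blood, most of them in the proximal tubule, whose early stretch is called S1 and S2 and whose straight last stretch is called S3. Brush border transporters load amino acids into the cell from the filtrate, and exchangers in the opposite membrane pass them on to the blood. Several of these transporters work as pairs, in which a heavy chain of the Slc3 family brings a light chain of the Slc7 family to the membrane. Other members of the same families clear neurotransmitters in the brain, export amino acids from lysosomes or take up taurine and betaine as osmolytes.

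Levels are given as the FPKM that the authors deposited for each library (fragments scaled for transcript length and for library depth), which allows genes of different length to be compared. Differences between Far2 KO and WT were tested on the deposited fragment counts by the quasi-likelihood test of edgeR, fitted to the whole table, with a threshold of 0.05 on the p adjusted over all tested genes by the method of Benjamini and Hochberg. The libraries held 15261362 to 18650250 fragments in Far2 KO and 15843181 to 20631158 in WT. They are numbered 0, 1 and 2 within each group, and these numbers match no single mouse in the labels, so p-values measure the spread between these libraries. Far2 itself had 28, 19 and 31 fragments in Far2 KO libraries 0, 1 and 2, against 40, 40 and 22 in the WT libraries. These ranges overlap, and the counts cover the whole gene, so genotypes were taken from the labels with no check from the data. Markers of every proximal segment were abundant, with S1-S2 markers (Slc5a2, Slc5a12, Slc34a1, Slc34a3, Lrp2) summing to 1993 to 2207 FPKM in Far2 KO and 1962 to 2135 FPKM in WT. Some libraries stood apart in genes of other cells. The summed tubular injury markers (Havcr1, Lcn2, Vcam1, Krt20) were at 39.3 FPKM in WT library 0 and at 5.62 to 6.72 FPKM in the other libraries, and the 6 macrophage markers found in the table were at 138 FPKM there, against 42.6 to 63.2 FPKM elsewhere. Fat markers (Adipoq, Ucp1, Plin1) reached 15.5 FPKM in Far2 KO library 2 and 0.414 to 3.36 FPKM in the others. The adrenal markers Cyp11a1 and Cyp11b1 were near or at 0, and the third, Star, was at 1.09 to 1.62 FPKM in Far2 KO and 1.22 to 1.45 FPKM in WT. In whole tissue, fewer cells of a type and less RNA per cell cannot be told apart.

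Most of the summed transcript level of the members came from few genes. In WT, 4 members had a mean of 100 FPKM or more, 16 were between 10 and 100 FPKM, 19 between 1 and 10 FPKM and 20 below 1 FPKM, and 3 (Slc36a3, Slc38a5 and Slc38a8) had no fragment in any library of either group. A mean of 1 FPKM or more was reached by 38 members in Far2 KO and 39 in WT. The 5 highest members, Slc7a13, Slc3a1, Slc6a19, Slc6a18 and Slc1a1, took 65.7 ± 2.03% of the summed FPKM of all members in Far2 KO and 63.9 ± 2.78% in WT (SD, n = 3 each). In the order by mean WT level, Slc6a20b, Slc7a7, Slc6a6, Slc3a2, Slc7a9, Slc6a13 and Slc6a8 followed. Of the 12 highest members in WT, 11 were also among the 12 highest in Far2 KO. The WT ranges of neighbours in this order overlapped for 5 of the 11 neighbouring pairs, so that Slc6a19 and Slc6a18 were not told apart, and neither were neighbours in the run from Slc6a20b through Slc7a7, Slc6a6 and Slc3a2 to Slc7a9.

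**Figure D1:**
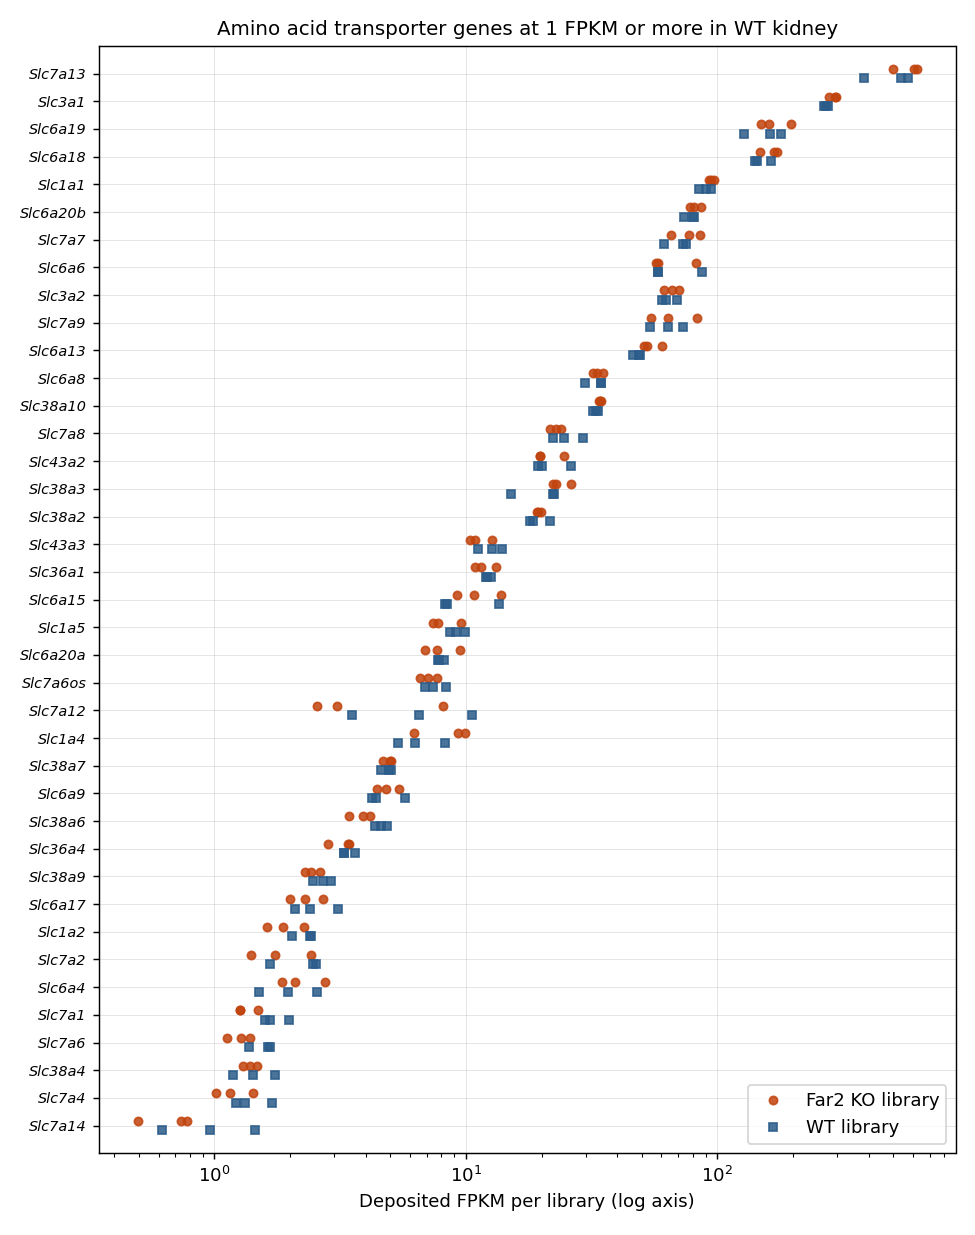
Deposited FPKM of each library (horizontal, log axis) for the members with a mean WT level of 1 FPKM or more, ordered from the highest at the top; orange circles are Far2 KO libraries and blue squares are WT libraries. Slc7a13 lies at 501 to 620.3 FPKM in Far2 KO and 384 to 573 FPKM in WT, and the ranges of the groups overlap for most members.

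Slc7a13, the light chain of an exchanger of aspartate, glutamate and cystine in the S3 brush border, was the highest member. It had 501, 620.3 and 606 FPKM in Far2 KO libraries 0, 1 and 2, against 539.5, 384 and 573 FPKM in the WT libraries. WT library 1 was the lowest of the 6 and the other ranges overlap. In the GENCODE annotation of GRCm38 its gene is on chromosome 4, plus strand, from base 19818725 to base 19842218. Its log2 fold change, Far2 KO over WT, was 0.22 with a standard error of 0.16, and it did not pass (edgeR, adjusted p = 0.690). With a library left out the log2 fold change was between 0.050, without WT library 1, and 0.365, without WT library 2. The summed S3 markers other than Slc7a13 (Slc5a1, Slc22a7, Cyp7b1, Atp11a) were also lowest in WT library 1. They had 424, 523 and 501 FPKM in Far2 KO and 434, 306 and 509.5 FPKM in WT, and their part in the result was not tested. Of the 4, the more abundant Atp11a and Cyp7b1 were lowest in WT library 1, while Slc5a1 was lowest in WT library 2 and Slc22a7 in WT library 0.

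Slc3a1 encodes the heavy chain that brings Slc7a9 and Slc7a13 to the brush border, and loss of either Slc3a1 or Slc7a9 causes cystinuria in humans and mice. It had 294, 296 and 278 FPKM in Far2 KO and 267, 277 and 269.6 FPKM in WT. In FPKM the Far2 KO values lay just above the WT values, while in scaled counts the groups overlapped. The log2 fold change was 0.07 ± 0.072 (SE; edgeR, adjusted p = 0.785), and its 95% confidence interval corresponds to a Far2 KO level of 0.937 to 1.17 times the WT level. The deposited locus of Slc3a1 overlaps that of Prepl on the opposite strand, and no strand setting is given, so its count is less certain. Its promoter window, from RefSeq on GRCm38.p6 (chr17:85028097-85028396, plus strand, 250 bases before to 50 after the start), is shown because Slc3a1 is the most abundant member with an entry in the RefSeq promoter table. Capitals mark the letters GTTAAT, the core of a site for the proximal tubule factor HNF1, found on the opposite strand 2 bases after the start.
Slc3a1: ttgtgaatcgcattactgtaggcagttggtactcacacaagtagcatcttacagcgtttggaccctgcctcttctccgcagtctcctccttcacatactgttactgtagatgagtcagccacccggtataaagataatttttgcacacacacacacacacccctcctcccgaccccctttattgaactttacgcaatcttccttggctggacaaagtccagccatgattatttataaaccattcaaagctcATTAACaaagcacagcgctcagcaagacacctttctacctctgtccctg

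Slc6a19, the main apical carrier of neutral amino acids in S1 and S2, had 196, 149 and 160.3 FPKM in Far2 KO and 163, 180.0 and 127 FPKM in WT. Slc6a18, a related carrier of glycine and neutral amino acids in S3, had 168, 173 and 148.5 FPKM in Far2 KO and 141.5, 163 and 144.5 FPKM in WT. For both genes the groups overlap, with log2 fold changes of 0.10 ± 0.12 (SE) for Slc6a19 and 0.13 ± 0.091 for Slc6a18. Neither passed (edgeR, adjusted p = 0.815 and 0.684). Slc6a18 and Slc6a19 lie 1.72 kb apart on chromosome 13 of GRCm38 (73661752 to 73678023 and 73679745 to 73704865, minus strand, GENCODE annotation). The deposited locus of Slc6a19 overlaps that of 5430425J12Rik, which makes its count less certain. The dopamine transporter Slc6a3, 83.1 kb from Slc6a18 in the same region, had at most 2 fragments in any library.

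Slc1a1, the apical glutamate and aspartate transporter, varied little between libraries. Its levels were 96.8, 94.7 and 92.4 FPKM in Far2 KO, against 94.05, 84.9 and 90.0 FPKM in WT, with a log2 fold change of 0.09 ± 0.070 (SE; edgeR, adjusted p = 0.707). Slc6a20b had 80.8, 85.9 and 77.8 FPKM in Far2 KO and 80.4, 73.8 and 80.5 FPKM in WT. Its neighbour and close copy Slc6a20a, 2.21 kb away on chromosome 9, was at 8.02 ± 1.32 FPKM in Far2 KO and 7.92 ± 0.246 FPKM in WT (SD, n = 3 each). The ratio of Slc6a20b to Slc6a20a was 10.4 ± 1.89 in Far2 KO and 9.88 ± 0.519 in WT. Fragments shared between these copies could have been split by the counting, so each level is less certain than their sum, and Slc6a20b also overlaps exons of Sacm1l on the other strand. Slc6a13, which takes up betaine and GABA across the basolateral membrane, had 52.8, 60.5 and 51.1 FPKM in Far2 KO and 49.4, 46.0 and 48.8 FPKM in WT. All 3 Far2 KO values of Slc6a13 were above all WT values in FPKM but not in scaled counts, and the log2 fold change of 0.15 ± 0.078 (SE) did not pass (edgeR, adjusted p = 0.607). With a library left out the log2 fold change was between 0.073, without Far2 KO library 1, and 0.194, without Far2 KO library 2.

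Of the 5 transporters listed for S1 and S2, Slc6a19 and Slc7a9 shared their highest, second highest and lowest libraries. The other 3 each had their own order. Slc7a9, the light chain that with Slc3a1 takes up cystine and basic amino acids, had 82.7, 63.5 and 54.6 FPKM in Far2 KO and 63.9, 73.0 and 54.2 FPKM in WT. Like Slc6a19, it was highest in Far2 KO library 0, next in WT library 1 and lowest in WT library 2. The S1-S2 marker Slc5a12 shared these libraries too, at 172, 141 and 148 FPKM in Far2 KO and 145, 159 and 127 FPKM in WT. The other 4 S1-S2 markers did not share all of them. Slc34a1 was highest in the same pair of libraries but lowest in Far2 KO library 1, Slc5a2 and Slc34a3 were highest in Far2 KO library 1, and Lrp2 was highest in WT library 2. Slc7a7, the basolateral exchanger of basic amino acids that is lost in human lysinuric protein intolerance, had 85.1, 77.3 and 65.4 FPKM in Far2 KO and 61.6, 73.2 and 75.2 FPKM in WT, with Far2 KO library 0 the highest and WT library 0 the lowest. The locus of Slc7a7 overlaps that of Oxa1l on the opposite strand. Slc7a8, a basolateral exchanger of neutral amino acids, had 24.0, 21.6 and 22.8 FPKM in Far2 KO and 22.3, 29.1 and 24.5 FPKM in WT, with WT library 1 the highest.

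The fifth S1-S2 gene, the proline and glycine carrier Slc36a2, was close to absent. It had 3, 6 and 23 fragments in Far2 KO and 8, 7 and 5 in WT, and fell below the filter on low counts. Its highest value was in Far2 KO library 2, the library with the highest fat markers (Ucp1 at 13.05 FPKM there, and at 0.236 to 2.56 FPKM in the others), and their part in this value was not tested. Of the 4 tested S1-S2 transporters, 3 had a higher and 1 a lower mean in Far2 KO, with a median log2 fold change of 0.057. This median was −0.080 without Far2 KO library 0, −0.016 without WT library 0 and −0.035 without WT library 2.

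All 5 transporters listed for S3 had a higher mean in Far2 KO, with a median log2 fold change of 0.22, beside −0.007 over all genes tested, and none of the 5 passed. Leaving out each library in turn gave medians of 0.14 to 0.28. Slc38a3, the basolateral glutamine transporter, had 22.3, 26.2 and 22.9 FPKM in Far2 KO and 22.3, 22.4 and 15.1 FPKM in WT, with WT library 2 apart from the rest. Its log2 fold change was 0.22 ± 0.13 (SE; edgeR, adjusted p = 0.630), 0.081 without WT library 2 and 0.327 without WT library 1. Slc1a4, an exchanger of alanine, serine and cysteine, had 6.19, 9.34 and 9.90 FPKM in Far2 KO and 6.31, 5.38 and 8.26 FPKM in WT. Its log2 fold change of 0.35 ± 0.20 (SE) was the highest of all tested members and did not pass (edgeR, adjusted p = 0.634). With a library left out it was between 0.22, without WT library 1, and 0.56, without WT library 2. It was 0.54 without Far2 KO library 0 and 0.22 without Far2 KO library 2. In the authors' deposited table the log2 fold change of Slc1a4 is 0.35 with a p-value of 0.0064 and a q-value of 0.289. The 5 S3 markers had a higher mean in Far2 KO as well, with a median of 0.22, and the S1-S2 markers had a median of 0.15 with 4 of 5 higher. Slc7a13 is in both S3 lists, and its own log2 fold change is the median of each, so these medians are not separate results.

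**Figure D2:**
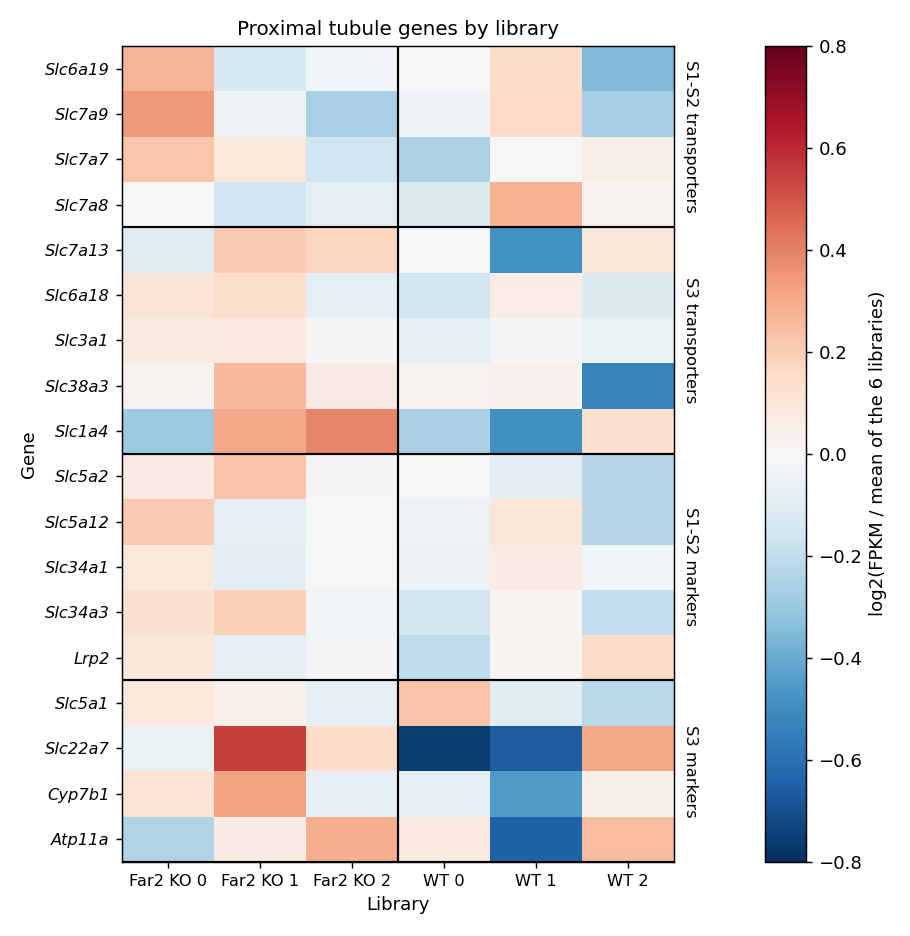
Level of proximal tubule transporters and of segment markers in each library (columns, 3 Far2 KO libraries left of 3 WT libraries), as log2 of FPKM over the mean of the 6 libraries, from blue (below the mean) to red (above). Slc7a13, Slc1a4, Slc22a7, Cyp7b1 and Atp11a are blue in WT library 1, while Slc6a19, Slc7a9 and Slc5a12 are red in Far2 KO library 0 and in WT library 1.

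In scaled counts, Far2 KO library 0 and WT library 1 often went together across members. In 18 of the 46 tested members (39.1%), library 0 was the highest of Far2 KO and library 1 the highest of WT, against 15.8% of all genes tested. In 3 members, Slc7a13, Slc1a4 and Slc6a15, both were the lowest of their group (6.52%, against 16.3% of all genes tested). The 18 include Slc7a5 and Slc7a6, which in FPKM were slightly higher in WT library 0 than in WT library 1. They also include Slc6a19, Slc7a9 and Slc7a8 of the S1-S2 list and none of the S3 list. The FPKM ratio of Slc7a13 to Slc7a9 was 6.06, 9.78 and 11.1 in Far2 KO and 8.44, 5.26 and 10.6 in WT. It was lowest in WT library 1 and next in Far2 KO library 0. Both genes are among the members just counted, so the ratio restates their values and is no separate result. The library pair was chosen after the values were seen.

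Heavy and light chains held similar proportions in both groups. Slc3a2, the heavy chain of the basolateral exchangers, had 70.5, 66.1 and 61.7 FPKM in Far2 KO and 62.5, 69.1 and 60.2 FPKM in WT. The log2 fold change was 0.03 ± 0.075 (SE; edgeR, adjusted p = 0.931), which corresponds to 0.906 to 1.14 times the WT level at 95% confidence. The light chains that pair with Slc3a2 (Slc7a5, Slc7a6, Slc7a7, Slc7a8, Slc7a10 and Slc7a11) summed to 1.52 ± 0.0589 times its level in Far2 KO and 1.53 ± 0.154 times in WT (SD, n = 3 each). Slc7a7 and Slc7a8 made up most of that sum. Slc7a9 stood at 0.231 ± 0.0445 of the level of Slc3a1 in Far2 KO and 0.235 ± 0.0316 in WT, while Slc7a13 stood at 1.99 ± 0.256 in Far2 KO and 1.85 ± 0.399 in WT. Transcripts of the S3 light chain were thus more abundant than those of the heavy chain in every library. The other light chains were low. Slc7a5, the exchanger of large neutral amino acids, had 39, 17 and 21 fragments in Far2 KO and 47, 50 and 25 in WT, and Slc7a6 had 89, 63 and 87 in Far2 KO and 119, 126 and 81 in WT. Slc7a10, whose locus overlaps that of Lrp3, had 3 to 5 fragments in every library of both groups. Of the 8 tested genes of the heavy and light chain list, 5 had a higher and 3 a lower mean in Far2 KO, and the median log2 fold change was 0.022.

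**Figure D3:**
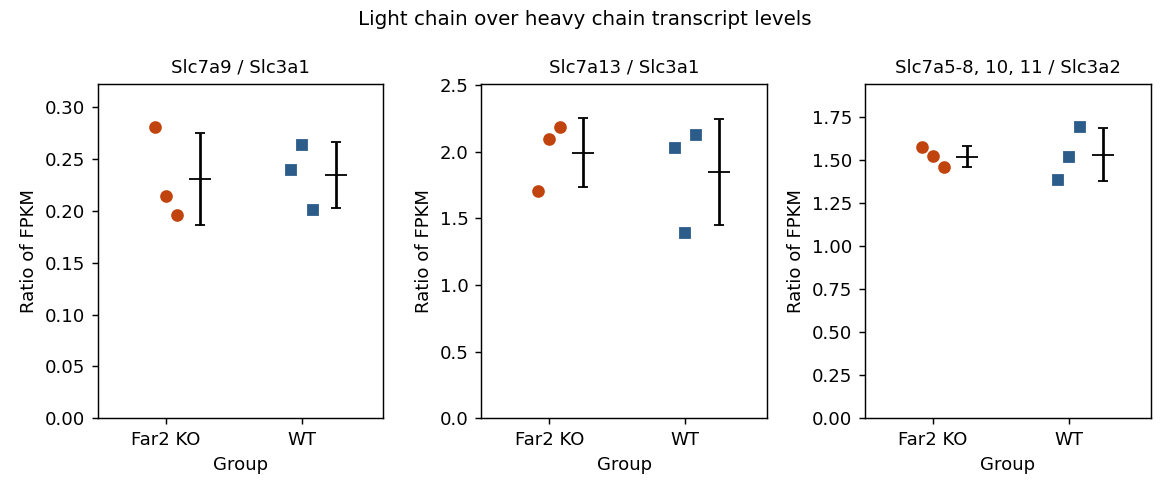
Ratio of FPKM of light chains to their heavy chain (vertical, linear axis from 0) in each Far2 KO library (orange circles) and each WT library (blue squares), with the mean and SD of the 3 libraries beside them. For Slc7a9 over Slc3a1, Slc7a13 over Slc3a1 and the 6 light chains over Slc3a2, the ranges of the groups overlap.

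In the comparison of Far2 KO with WT, 46 members had enough fragments to be tested, and 16 did not, the highest of these with a mean of 8.67 fragments per library. No member passed the edgeR test at the adjusted threshold (smallest adjusted p of a member 0.599), and 0 of the 14354 genes did (0%). At an unadjusted p under 0.05 there were 4 members, 8.70% of those tested, beside 8.31% of all genes (1193 genes). All 4 were lower in Far2 KO, where 5.14% of all genes were lower at that level and 3.17% higher. DESeq2 called 14 of 11291 genes (0.124%) and 0 members, and 3 members had an unadjusted p under 0.05 there (6.52%, beside 5.59% of all genes). The authors' deposited table marks 88 of the 13404 genes it tested as significant (0.657%) and 0 members, with the smallest q-value of a member, 0.0725, at Slc7a14. In both directions together the shares of members were near those of all genes, while by direction 8.70% of members were lower and 0% higher at an unadjusted p under 0.05 in edgeR. The difference between these shares was not tested.

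Slc7a1, the widely expressed carrier of arginine and lysine, had 1.49, 1.26 and 1.26 FPKM in Far2 KO and 1.66, 1.99 and 1.59 FPKM in WT. In counts this was 187, 140 and 170 fragments in Far2 KO and 234, 300 and 185 in WT. Scaled for depth, every Far2 KO library was below every WT library, at 9.71 ± 0.818 CPM (fragment counts scaled to a common library size) in Far2 KO and 12.6 ± 1.41 CPM in WT (SD, n = 3 each). The log2 fold change was −0.38 ± 0.12 (SE; edgeR, unadjusted p = 0.00921, adjusted p = 0.599). The unadjusted p was under 0.05 in all 14 alternative settings, with log2 fold changes of −0.45 to −0.23, and −0.44 without WT library 0. In the GENCODE annotation of GRCm38, Slc7a1 lies on the minus strand of chromosome 5 from 148327410 to 148399904.

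Slc1a2, a glutamate transporter best known from astrocytes, had 1.62, 1.87 and 2.26 FPKM in Far2 KO and 2.42, 2.39 and 2.04 FPKM in WT. The ranges overlap, since Far2 KO library 2 was above WT library 2. The log2 fold change was −0.38 ± 0.14 (SE; edgeR, unadjusted p = 0.0206, adjusted p = 0.599), and −0.30 without WT library 0. Slc38a6, a member of the neutral amino acid carriers of the Slc38 family, had 3.91, 3.42 and 4.15 FPKM in Far2 KO and 4.33, 4.88 and 4.60 FPKM in WT, with all Far2 KO values below all WT values. Its log2 fold change was −0.24 ± 0.11 (SE; edgeR, unadjusted p = 0.0491, adjusted p = 0.599), and the 95% confidence interval reached −0.001. The unadjusted p was under 0.05 in 8 of the 14 alternative settings for Slc1a2 and in 6 of 14 for Slc38a6. Slc1a2 lies on chromosome 2 (102658659 to 102790784, plus strand) and Slc38a6 on chromosome 12 (73286779 to 73354049, plus strand).

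Without overlap between the groups in CPM, 1 member was higher and 5 were lower in Far2 KO, 13.04% of the tested members beside 14.1% of all genes (7.12% higher and 6.96% lower). The higher member was Slc38a10, at 34.5, 34.2 and 33.9 FPKM in Far2 KO and 33.6, 33.0 and 32.1 FPKM in WT, the narrowest range of any tested member. Its log2 fold change was 0.07 ± 0.058 (SE; edgeR, adjusted p = 0.740). The lower members included Slc7a1, Slc38a6, Slc7a6 and the glutamine carrier Slc38a1. In FPKM the groups overlapped for Slc7a6 and Slc38a1. Slc7a6 was at 4.65 ± 0.441 CPM in Far2 KO and 5.71 ± 0.397 CPM in WT, and Slc38a1 at 4.30 ± 0.719 CPM in Far2 KO and 4.95 ± 0.138 CPM in WT (SD, n = 3 each). Leaving out a library makes such separation more frequent for all genes, and without Far2 KO library 0 it held for 15 members (32.6%, beside 28.1% of all genes).

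The precision of the comparison differed among members. The 95% confidence interval left out a change of 2-fold in either direction for 40 of the 46 tested members and a change of 1.5-fold for 32. For the 12 highest members the intervals lay between 0.745 and 1.48 times the WT level. Among the 6 others, Slc7a12 had the widest range of all tested members, with 8.08, 3.08 and 2.56 FPKM in Far2 KO and 6.50, 10.6 and 3.51 FPKM in WT. Its highest library was 4.12-fold above its lowest. Slc7a12 is a light chain relative of Slc7a13, and its log2 fold change of −0.54 ± 0.44 (SE) did not pass (edgeR, adjusted p = 0.711). In the authors' deposited table its p-value is 0.00115 and its q-value 0.113. For Slc7a14, at 0.738, 0.497 and 0.780 FPKM in Far2 KO and 0.617, 1.45 and 0.962 FPKM in WT, the edgeR value was −0.57 ± 0.29 (SE; adjusted p = 0.603).

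**Figure D4:**
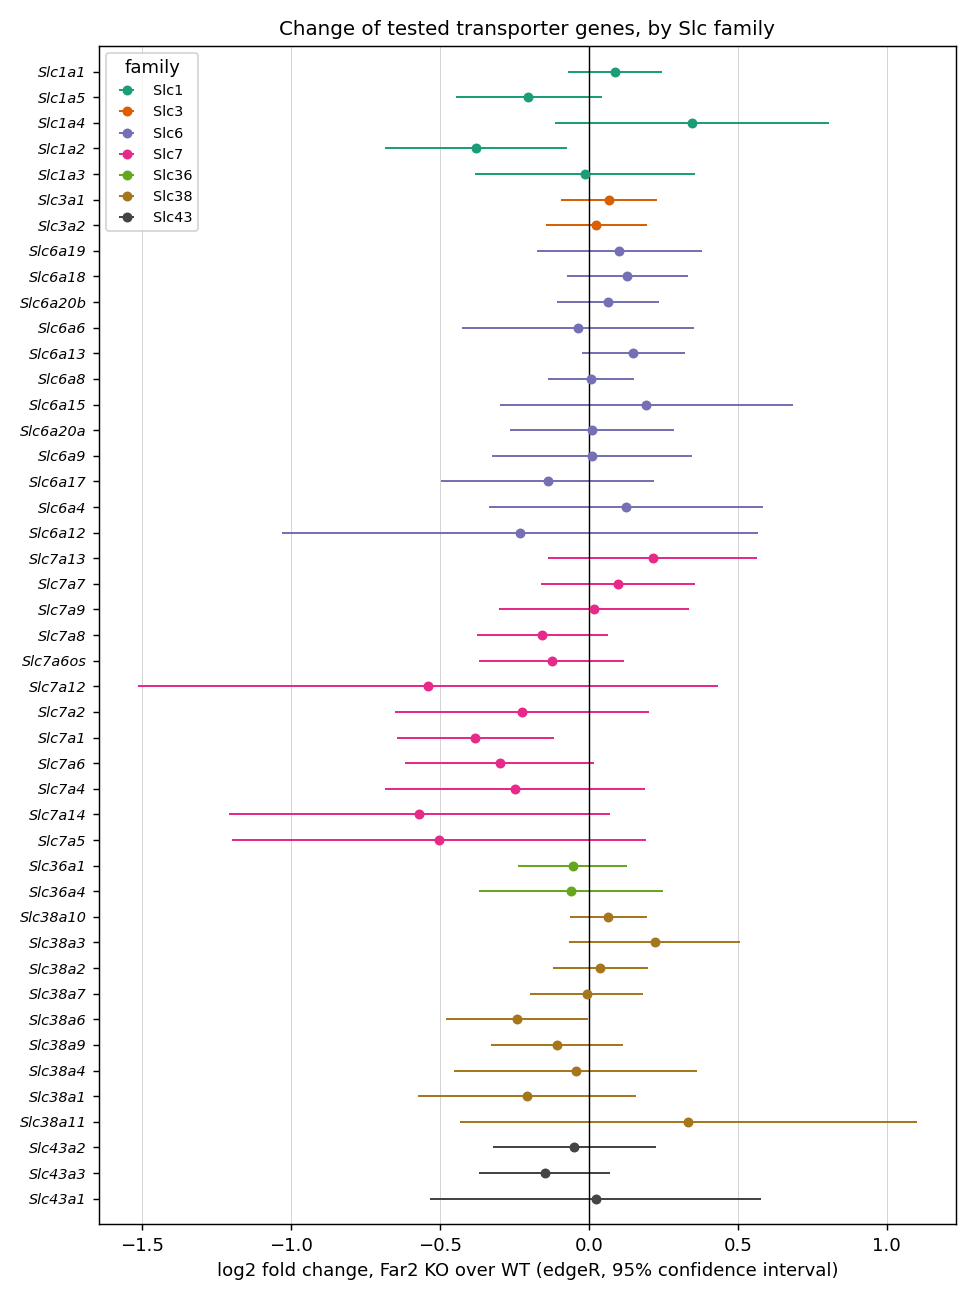
Log2 fold change of Far2 KO over WT (horizontal) for tested members, coloured by Slc family and ordered within a family by WT level, with 95% confidence intervals from edgeR. Intervals are narrow for abundant members and wide for Slc7a12, Slc6a12 and Slc38a11, and those of Slc7a1, Slc1a2 and Slc38a6 exclude 0.

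By family, Slc7 had the lowest median log2 fold change, −0.23 over 12 tested genes, of which 9 had a lower and 3 a higher mean in Far2 KO. The 3 higher ones, Slc7a13, Slc7a7 and Slc7a9, are the most abundant genes of the family, and the sum of the family in FPKM was 717, 798 and 765 in Far2 KO and 710, 588 and 745 in WT. Leaving out each library in turn gave Slc7 medians of −0.36 to −0.14. The Slc6 median was 0.011 with 9 of 13 genes higher, and −0.004 under upper-quartile scaling. The Slc1 median was −0.013, the Slc3 median 0.047, the Slc36 median −0.057, the Slc38 median −0.007 and the Slc43 median −0.048. With a library left out, the medians were −0.101 to 0.050 for Slc1, 0.007 to 0.088 for Slc3, −0.010 to 0.055 for Slc6 and −0.148 to 0.104 for Slc43, so that those of Slc1, Slc6 and Slc43 changed sign. Over all 46 tested members the median was −0.024, with 21 higher and 25 lower, and over all genes tested it was −0.007. The median of the tested members was −0.081 to 0.011 with a library left out. The members with a higher mean were 45.7% of those tested, beside 48.3% of all genes.

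Summed over all 62 members, levels were 1983, 2004 and 1913 FPKM in Far2 KO and 1845, 1795 and 1833 FPKM in WT, without overlap between the groups. Of the 12 highest members, 11 had a log2 fold change above 0, with a median log2 fold change of 0.079. As a share of the FPKM of all genes the groups overlapped, at 0.243%, 0.240% and 0.243% in Far2 KO and 0.240%, 0.226% and 0.235% in WT. They also overlapped as a share of all fragments, at 0.576%, 0.566% and 0.541% in Far2 KO and 0.527%, 0.557% and 0.531% in WT. In WT the Slc7 family made up 37.3% of the summed level, Slc6 30.8%, Slc3 18.4%, Slc1 5.96%, Slc38 4.77%, Slc43 1.93% and Slc36 0.867%.

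**Figure D5:**
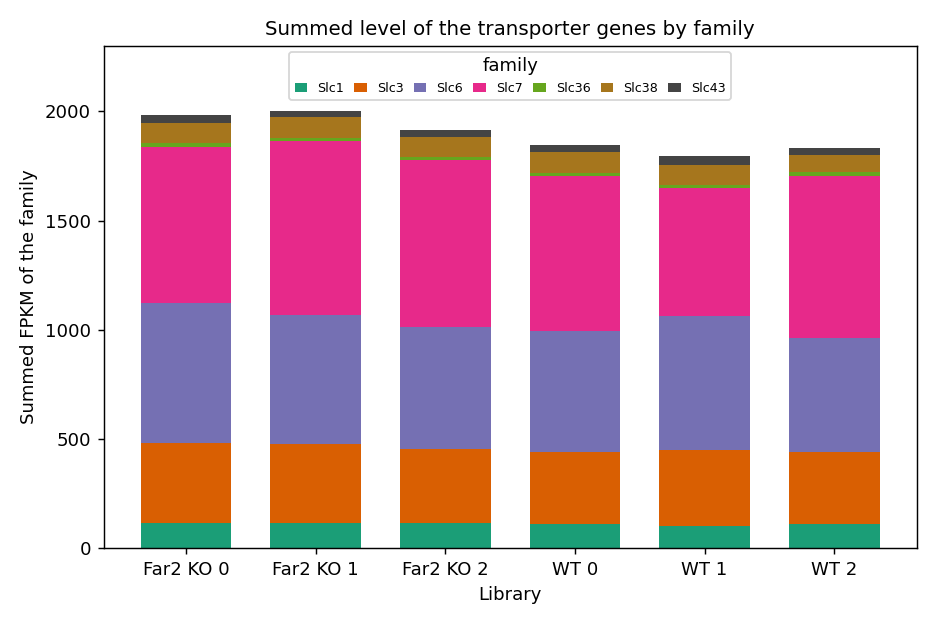
Summed FPKM of the 62 members in each library (vertical, linear axis from 0), stacked by Slc family, with the 3 Far2 KO libraries left of the 3 WT libraries. The total stands between 1913 and 2004 in Far2 KO and between 1795 and 1845 in WT, and Slc7, Slc6 and Slc3 make up most of each bar.

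Transporters that take up osmolytes in the medulla varied within the groups. Slc6a6, the taurine transporter, had 82.2, 58.3 and 57.3 FPKM in Far2 KO and 57.9, 86.8 and 57.9 FPKM in WT. A single library of each group, Far2 KO library 0 and WT library 1, was high, and the other 4 were nearly equal. The log2 fold change was −0.04 ± 0.17 (SE; edgeR, adjusted p = 0.962), and 0.18 without WT library 1. Slc6a12, the betaine and GABA transporter BGT1, had 27, 31 and 28 fragments in Far2 KO and 21, 62 and 30 in WT, and was likewise highest in WT library 1. It lies 5.34 kb from the much more abundant Slc6a13 on chromosome 6. Slc38a2, the glutamine carrier induced by hypertonicity and by amino acid lack, was steady at 19.9, 19.2 and 19.4 FPKM in Far2 KO and 21.5, 18.5 and 17.9 FPKM in WT. Of the 4 other hypertonicity targets (Slc5a3, Akr1b3, Nfat5 and Hspa4l), 0 had an unadjusted p under 0.05, and 2 had a higher and 2 a lower mean in Far2 KO, with a median of −0.062. Akr1b3, which makes sorbitol, had 12.7, 5.42 and 10.98 FPKM in Far2 KO and 6.38, 15.2 and 18.1 FPKM in WT, an order across libraries that Slc6a6 did not have.

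Transporters that the stress factor ATF4 induces when amino acids are scarce showed no common direction. Of the 7 tested genes of the list, 4 had a higher and 3 a lower mean in Far2 KO, with a median log2 fold change of 0.010, and −0.005 under upper-quartile scaling. Slc1a4 had the highest value and Slc7a5 the lowest, −0.50 ± 0.31 (SE; edgeR, adjusted p = 0.646). Slc1a5, the glutamine exchanger ASCT2, was at 8.22 ± 1.17 FPKM in Far2 KO and 9.22 ± 0.665 FPKM in WT (SD, n = 3 each). The glycine transporter Slc6a9, whose locus overlaps that of Ccdc24, was at 4.89 ± 0.498 FPKM in Far2 KO and 4.77 ± 0.823 FPKM in WT. Slc7a11, the cystine and glutamate exchanger xCT, had 3, 3 and 6 fragments in Far2 KO and 15, 10 and 6 in WT, too few to be tested. Its highest value was in WT library 0, which also held the highest injury and macrophage markers, and their part in this value was not tested. Of 15 ATF4 targets that are no transporters, 7 had a higher and 8 a lower mean in Far2 KO, with a median of −0.008. An unadjusted p under 0.05 was reached by 1 of these 15, Cth, beside 8.31% of all genes tested. Cth, an enzyme of cysteine synthesis, had 120.4, 131 and 113 FPKM in Far2 KO and 106, 104 and 94.8 FPKM in WT. All its Far2 KO values were above all WT values, with a log2 fold change of 0.26 ± 0.075 (SE; edgeR, unadjusted p = 0.00630, adjusted p = 0.599). In FPKM, Atf4 and Psat1 were also higher in Far2 KO without overlap. Atf4 had 41.15, 40.2 and 39.5 FPKM in Far2 KO and 38.9, 33.4 and 35.2 FPKM in WT. In CPM, 3 of the 15 were higher and 0 lower without overlap, beside 7.12% and 6.96% of all genes tested, a difference that was not tested. Trib3 and Chac1 were the low end of this list, with at most 0.546 and 0.585 FPKM in any library. Activity of ATF4 itself was not tested. The promoter windows of Slc1a4 (chr11:20332664-20332963, minus strand) and Slc7a11 (chr3:50443564-50443863, minus strand), from RefSeq on GRCm38.p6 and read on the strand of the gene, are shown because both hold the ATF4 response element TGATGNAA although their levels differ widely. Capitals mark the element on either strand, with distances counted from its first marked base. In Slc1a4 it begins 4 bases before the start and runs across it. In Slc7a11 the elements begin 66 and 47 bases before the start.
Slc1a4: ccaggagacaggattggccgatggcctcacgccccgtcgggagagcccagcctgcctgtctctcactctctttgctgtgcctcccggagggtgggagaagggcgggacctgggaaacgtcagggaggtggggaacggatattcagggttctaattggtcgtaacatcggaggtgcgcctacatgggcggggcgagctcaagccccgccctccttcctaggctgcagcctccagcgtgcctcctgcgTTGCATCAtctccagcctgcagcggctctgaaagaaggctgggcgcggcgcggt
Slc7a11: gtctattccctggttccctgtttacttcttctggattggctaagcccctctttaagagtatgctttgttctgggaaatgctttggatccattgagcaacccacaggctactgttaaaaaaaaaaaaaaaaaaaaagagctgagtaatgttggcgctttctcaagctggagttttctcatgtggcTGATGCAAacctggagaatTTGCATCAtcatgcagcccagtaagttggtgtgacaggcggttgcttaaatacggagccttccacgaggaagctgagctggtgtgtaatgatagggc

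Promoter windows of 300 bases were available for 44 of the 62 members. The HNF1 core GTTAAT was found on either strand in 9.23% of the 65 member windows, beside 7.10% of all 32851 windows in the table. It was in 4 of the 21 windows of members at 10 FPKM or more in WT (19.0%), those of Slc3a1, Slc7a7, Slc6a13 and Slc36a1. The ATF4 element was in 6.15% of member windows beside 3.97% of all windows, and in 2 of 9 windows of the ATF4 transporter list (22.2%). Several windows belong to the same gene, and a match to these letters is a description and not a site. Slc7a13 and Slc6a18 had no entry.

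Members best known from neurons or glia were mostly close to absent. Of the 12 on the neurotransmitter list, 5 were tested, 1 with a higher and 4 with a lower mean in Far2 KO and a median of −0.14. Slc6a17 was at 2.33 ± 0.360 FPKM in Far2 KO and 2.53 ± 0.514 FPKM in WT, and the serotonin transporter Slc6a4 at 2.24 ± 0.471 FPKM in Far2 KO and 2.01 ± 0.532 FPKM in WT (SD, n = 3 each). Slc1a3, a glutamate transporter of glia, was at 0.784 ± 0.0852 FPKM in Far2 KO and 0.797 ± 0.0326 FPKM in WT. Slc1a6, Slc6a2, Slc6a3 and Slc6a5 had no more than 4 fragments in any library. Lysosomal members were steadier. Slc36a1, which exports small amino acids with protons, had 11.5, 10.9 and 13.2 FPKM in Far2 KO and 12.6, 12.1 and 12.1 FPKM in WT. Slc38a9, which senses arginine for mTORC1, was at 2.45 ± 0.166 FPKM in Far2 KO and 2.70 ± 0.214 FPKM in WT, and the glutamine exporter Slc38a7 at 4.91 ± 0.208 FPKM in Far2 KO and 4.86 ± 0.245 FPKM in WT (SD, n = 3 each). In the fit the 3 lysosomal members had log2 fold changes below 0, with a median of −0.053, although that of Slc38a7 was −0.007 and its mean FPKM was higher in Far2 KO. None of the 3 had an unadjusted p under 0.05.

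Partner proteins and other carriers of amino acids and peptides, which are not members, were read beside them. Of 10 such genes, 8 had a higher and 2 a lower mean in Far2 KO, with a median log2 fold change of 0.11, and 0 passed after adjustment. Tmem27, which encodes collectrin, the partner that brings Slc6a18 and Slc6a19 to the brush border, had 1269, 1270.0 and 1181 FPKM in Far2 KO and 1233, 1061 and 983 FPKM in WT. The ranges overlap through WT library 0, and the log2 fold change was 0.19 ± 0.087 (SE; edgeR, adjusted p = 0.603). Slc16a10, the basolateral carrier of aromatic amino acids, had 18.6, 18.3 and 17.5 FPKM in Far2 KO and 15.0, 17.01 and 14.8 FPKM in WT, without overlap. Slc16a10 was the only 1 of the 10 with an unadjusted p under 0.05, beside 8.31% of all genes tested. Its log2 fold change was 0.23 ± 0.072 (SE; edgeR, unadjusted p = 0.00989, adjusted p = 0.599). Slc25a15 was also without overlap, at 63.5, 65.4 and 65.6 FPKM in Far2 KO and 62.8, 60.4 and 58.0 FPKM in WT. In CPM, 2 of the 10 were higher and 0 lower without overlap, beside 7.12% and 6.96% of all genes tested.

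The remaining abundant members stayed within the spread of the libraries. The creatine transporter Slc6a8 had 35.2, 31.9 and 33.3 FPKM in Far2 KO and 34.5, 34.5 and 29.8 FPKM in WT. Slc43a2, a basolateral carrier of neutral amino acids whose locus overlaps that of Mir3971, had 24.5, 19.6 and 19.8 FPKM in Far2 KO and 20.0, 26.2 and 19.4 FPKM in WT. It was highest in Far2 KO library 0 and WT library 1, as Slc6a6 was. Slc6a15, a carrier of branched-chain amino acids, had 9.26, 13.8 and 10.8 FPKM in Far2 KO and 8.41, 8.27 and 13.5 FPKM in WT, with Far2 KO library 1 and WT library 2 high.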

How the data were processed

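Per the labels' protocols, RNA was extracted from frozen right kidneys and made into stranded libraries after ribosomal RNA removal. Per the submitters' processing notes, the mm10 assembly, Cuffdiff, Cufflinks 2.2.1, TopHat2 2.0.13, SAMtools 1.2, Bowtie2 2.2.3 and cutadapt 1.2.1 were used. Neither gene models nor strand setting is given in the sources used here. Per the file headers, the values the authors deposited for each gene in each library are an estimated count of fragments and an FPKM, which Cuffdiff scales between libraries. Per the file headers, their comparison table holds a log2 fold change of Far2 KO over WT, with its p-value and q-value. It was read for single members, for the number of genes tested and marked significant, and for overlaps of deposited loci. The deposited libraries, numbered 0, 1 and 2 in each group, match no sample label and were grouped by the condition the table gives.

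Estimated counts were rounded, low genes were removed with filterByExpr, and TMM-scaled libraries were compared with edgeR 4.0.16 in R 4.3.3 (quasi-likelihood, two-sided, no covariates) over 14354 genes; the biological coefficient of variation was 10.1%. CPM used the same scaling, and summaries were made in Python 3.11.15. The alternatives were DESeq2 1.42.0, scaling by RLE or upper quartile, all genes with a fragment, genes at 1 CPM in 3 libraries, limma 3.58.1 with voom or on log2(FPKM + 1) and log2(FPKM + 0.1), a threshold of 0.10 and leaving out each library. The tests were tried on simulated data. Members named with values were the 12 highest in WT, those with an unadjusted p under 0.05 and those of the S1-S2, S3, chain and osmolyte lists; other names were chosen after their values were seen. The values of 1 member are not reported here. The members and lists were chosen with earlier results of these data known. Gene coordinates came from GENCODE on GRCm38 and promoters from RefSeq on GRCm38.p6.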

Additional observations from a re-analysis of the deposited data

How the results depend on the processing

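No alternative called a member after adjustment. Over all genes edgeR called 0, DESeq2 called 14, edgeR without a filter called 1, a threshold of 0.10 gave 1, and leaving out each library gave 0 to 1. Members with an unadjusted p under 0.05 numbered 3 to 7 with a library left out, the most without Far2 KO library 0 (14.9%, beside 8.75% of all genes). They numbered 6 without WT library 0 (13.04%, beside 11.2%) and 6 without WT library 2 (13.04%, beside 7.54%). They numbered 3 without Far2 KO library 1 (6.38%, beside 3.53%), 4 without Far2 KO library 2 (8.51%, beside 7.08%) and 4 without WT library 1 (8.51%, beside 6.16%). Members without overlap numbered 15 without Far2 KO library 0 (32.6%, beside 28.1% of all genes) and 15 without Far2 KO library 2 (32.6%, beside 25.4%). There were 12 without WT library 2 (26.1%, beside 23.9%) and 10 without WT library 0 (21.7%, beside 29.5%). The fewest were 6 without Far2 KO library 1 (13.04%, beside 19.3%) and 7 without WT library 1 (15.2%, beside 22.9%). The Slc38 median was −0.029 with the filter of 1 CPM and 0.014 on log2(FPKM + 0.1). With a library left out, medians were −0.039 to 0.032 for Slc38, −0.364 to −0.140 for Slc7, −0.098 to 0.011 for ATF4 transporters, −0.079 to 0.084 for heavy and light chains, −0.285 to 0.012 for neurotransmitter transporters and 0.033 to 0.119 for proximal transporters with no segment assigned. The 5 highest members took 57.9% of CPM in WT. Log2 fold changes crossed 0 for Slc6a8 under upper-quartile scaling (−0.009) and, with a library left out, for Slc38a2 (−0.001 to 0.106), Slc3a2 (−0.018 to 0.092), Slc6a12 (−0.552 to 0.212), Slc6a19 (−0.010 to 0.216), Slc6a6 (−0.211 to 0.182), Slc6a8 (−0.033 to 0.051), Slc7a7 (−0.015 to 0.192) and Slc7a9 (−0.149 to 0.147). With a library left out they kept their sign but moved by over 1.5 times for Slc1a1 (0.045 to 0.125), Slc3a1 (0.032 to 0.099), Slc6a18 (0.069 to 0.196), Slc6a20b (0.017 to 0.119) and Slc7a8 (−0.258 to −0.047). The same held for Slc7a13 (0.050 to 0.365), Slc38a3 (0.081 to 0.327), Slc6a13 (0.073 to 0.194) and Slc1a4 (0.217 to 0.563). The cause of these shifts was not tested. Of 578 alternative values, 538 kept their direction and side of the threshold or stayed within the spread.

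No paired analysis was possible because the labels give the groups no shared replicate numbers, and those of the deposited table match no mouse. With 3 libraries a group, the confidence interval left out a 1.5-fold change for 32 of the 46 tested members, and the 16 members with few fragments could not be compared.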
